A study of Mus musculus with 56 samples.

Results

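ChIP-seq peaks annotated to 4 genes of secreted growth and vasoactive factors, Hbegf, Edn1, Vegfa and Ereg, were followed through all 56 peak lists of a study of mouse bone marrow-derived macrophages (BMDMs). A peak was a member when the authors' annotation gave one of these symbols as its gene, which held for 875 of 1610519 peaks. Edn1 had 590 of these peaks in 55 lists, Vegfa 135 in 56 lists, Hbegf 131 in 53 lists and Ereg 19 in 16 lists. WT BMDMs came from mice on a C57BL/6 background aged 8 to 12 weeks, and were differentiated for 6 days with L929 supernatant, a source of the macrophage growth factor M-CSF that every group received. In the first experiment cells were left untreated (ctrl) or received 20 ng/ml IL-4 for 1 hr, with 2 samples per group and 8 antibodies (H3K27Ac, HDAC1, HDAC2, HDAC3, PU.1, p300, RNAPII-pS5 and RNAPII-pS2). In the second, cells were pretreated (PT) or not with IL-4 for 24 hr and then received 100 ng/ml LPS for 1 hr or nothing, which gave IL-4 PT/LPS and ctrl/LPS cells and, without LPS, IL-4 PT/ctrl and ctrl/ctrl cells, each with 2 samples for RNAPII-pS5, RNAPII-pS2 and p65. BMDMs are differentiated in culture, so the measurements describe these cells and not macrophages of a tissue. The study describes its ChIP-seq replicates as independent biological replicates, and the labels do not tie a sample to an animal or culture.

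Hbegf and Ereg encode HB-EGF and epiregulin, ligands of the EGF family that are made as membrane-bound precursors, released by ADAM proteases and bound by ERBB receptors. Edn1 encodes the precursor of endothelin-1, a strongly vasoconstrictor peptide that endothelin-converting enzymes complete and that acts through the receptors Ednra and Ednrb. Vegfa encodes VEGF-A, the main growth factor of blood vessels, a known target of the hypoxia-inducible factors. In macrophages IL-4 signals through the transcription factor STAT6 and LPS through TLR4 to NF-kB, of which p65 is a subunit, while PU.1 is the lineage factor that marks macrophage enhancers. H3K27Ac is a histone mark of active enhancers and promoters, p300 is an acetylase that places it and HDAC1, HDAC2 and HDAC3 belong to the deacetylases that remove it. Serine 5 phosphorylation of RNA polymerase II (RNAPII-pS5) is highest near start sites and serine 2 phosphorylation (RNAPII-pS2) is a sign of elongation.

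The sequences at the centres of 7 sites on which the results turn are shown on the plus strand of GRCm38.p6 (the mm10 build of the files, from RefSeq), with motif matches in capitals. The motifs, searched on both strands, were TTCNNNNGAA for STAT6, TTCNNNGAA for other STATs, TGANTCA for AP-1, GAGGAAG for PU.1 and GGGNNNNTCC for NF-kB, with ACGTG as the core of the hypoxia response element. The Edn1 -55.4 kb site (chr13:42246020-42246219) had peaks of all 9 antibodies and gained H3K27Ac after IL-4. The -52.6 kb (chr13:42248815-42249014), -18.7 kb (chr13:42282700-42282899) and -8.4 kb (chr13:42293005-42293204) sites were among the Edn1 sites at which p65 differed with pretreatment. That at -8.4 kb had p65 peaks in IL-4 PT/LPS only. The Edn1 promoter (chr13:42301218-42301417) was among the sites at which p300 and H3K27Ac differed after IL-4. The Ereg +8.7 kb site (chr5:91083184-91083383) held the only Ereg peaks of the pretreatment experiment, and the Vegfa +78.7 kb site (chr17:45953611-45953810) the main RNAPII decreases.
Edn1 -55.4 kb: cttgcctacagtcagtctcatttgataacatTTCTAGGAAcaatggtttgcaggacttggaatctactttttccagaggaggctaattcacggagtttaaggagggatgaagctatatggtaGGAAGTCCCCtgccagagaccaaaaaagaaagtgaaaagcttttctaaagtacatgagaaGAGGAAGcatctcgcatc
Edn1 -52.6 kb: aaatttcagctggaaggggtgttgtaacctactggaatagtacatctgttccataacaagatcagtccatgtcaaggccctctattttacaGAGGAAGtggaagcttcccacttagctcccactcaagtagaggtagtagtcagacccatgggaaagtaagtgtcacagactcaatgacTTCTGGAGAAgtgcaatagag
Edn1 -18.7 kb: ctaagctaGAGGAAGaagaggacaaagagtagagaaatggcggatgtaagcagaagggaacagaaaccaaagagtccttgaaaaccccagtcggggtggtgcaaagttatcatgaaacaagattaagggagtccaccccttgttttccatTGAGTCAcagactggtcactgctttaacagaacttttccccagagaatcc
Edn1 -8.4 kb: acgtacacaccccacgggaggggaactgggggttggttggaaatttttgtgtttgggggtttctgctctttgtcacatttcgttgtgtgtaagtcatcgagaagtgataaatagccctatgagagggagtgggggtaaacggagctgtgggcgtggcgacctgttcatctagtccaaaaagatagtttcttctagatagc
Edn1 promoter: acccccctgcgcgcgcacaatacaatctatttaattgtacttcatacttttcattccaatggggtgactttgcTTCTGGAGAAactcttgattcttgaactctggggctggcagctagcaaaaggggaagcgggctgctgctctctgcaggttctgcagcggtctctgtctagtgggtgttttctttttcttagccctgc
Ereg +8.7 kb: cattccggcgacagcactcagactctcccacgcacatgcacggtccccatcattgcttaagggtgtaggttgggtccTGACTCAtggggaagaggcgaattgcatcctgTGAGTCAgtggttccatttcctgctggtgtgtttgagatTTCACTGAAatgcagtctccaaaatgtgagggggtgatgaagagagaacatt
Vegfa +78.7 kb: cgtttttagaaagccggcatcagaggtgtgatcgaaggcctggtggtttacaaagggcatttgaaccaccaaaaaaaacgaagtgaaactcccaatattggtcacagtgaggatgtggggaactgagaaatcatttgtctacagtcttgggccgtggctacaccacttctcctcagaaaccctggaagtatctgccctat
The capitals mark the STAT6 spacing in the Edn1 promoter and at -52.6 kb, a PU.1 match at -55.4, -52.6 and -18.7 kb, AP-1 matches at Edn1 -18.7 kb and at Ereg +8.7 kb, another STAT spacing at Edn1 -55.4 kb and at Ereg +8.7 kb, and an NF-kB match on the minus strand at Edn1 -55.4 kb. No letters of these motifs lay in the Edn1 -8.4 kb or Vegfa +78.7 kb windows. Over all 51401 windows of the same length centred on p65 sites, 8.25% held the STAT6 motif, 8.47% the other STAT motif, 21.8% AP-1, 18.5% PU.1, 18.2% NF-kB and 11.5% the hypoxia core. Over 18238 HDAC3 windows the shares were 11.4%, 10.2%, 18.1%, 30.5% and 10.6% for the first 5. Of 32 p65 sites of the members, 5 held the STAT6 motif, 4 the other STAT motif, 5 AP-1, 9 PU.1, 9 NF-kB and 1 the hypoxia core. These counts describe the windows and are no test.

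Each peak has a score. For all antibodies except H3K27Ac it is the -log10 p or q value of MACS2, and for H3K27Ac the normalised tag count of a HOMER region, so scores are compared only within one antibody. A gene's value is the sum of the scores of its peaks in a list, and the changes below are differences of log2 values in limma after centring each list on the median of the genes with a peak in every list. A list without a peak took the lowest score of its antibody, so where a whole group had no peak no fold against it is given, the adjusted p rests on that floor, which has no spread, and an interaction that uses such a group depends on the floor. A gene or site with peaks in 1 group only was tested only through that group, so it is described by its scores, with no p. The exception is the list of flagged interactions near the end. There the fitted value and adjusted p of such features are recorded, but they are no test of a difference. MACS2 scores grow with depth, which is unknown here, and the lists held from 8440 (HDAC3, ctrl replicate 2) to 71027 peaks (PU.1, IL-4 replicate 2). Of the p300 lists, ctrl replicate 1 stood apart with 44787 peaks against 66710 to 69360 in the others. For RNAPII-pS2 at 1 hr, the peak names inside the files and the sample labels name opposite treatments. The labels were kept, and every sign of that comparison turns if the libraries were exchanged. p65 had 9556 to 11026 peaks in the groups without LPS, 26305 and 26820 in ctrl/LPS, and 36738 and 38955 in IL-4 PT/LPS, and the share of this difference in the p65 results was not tested. Centring took 1.64 (log2) off the p65 LPS comparison, 2.29 off that in pretreated cells, 0.50 off that of pretreatment under LPS and 0.85 off the p300 comparison. As a check of the cell type, 6 of 7 macrophage markers had an RNAPII-pS5 peak within 2 kb of the start in all 4 untreated lists (Csf1r at scores of 16.8 to 42.7). No such peak was listed under the symbol Spi1, and older symbols of that gene were not searched. Of the markers of other cells only Lck, of T cells (all 4 lists), and Kdr, of endothelium (1 list), did.

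The 4 loci differed in layout. Edn1 (chr13:42301476-42307990, plus strand) had 40 elements, that is merged peak positions over all lists, from -113.9 to 135.3 kb of its start, and 90.3% of its peaks were intergenic. The nearest genes, Hivep1 and Phactr1, start or end 116.0 and 372.0 kb away, so the authors' nearest-gene rule gave Edn1 the peaks of a wide interval, 301 of them more than 50 kb from the start. The Edn1 element at -43.0 kb was present in all 55 lists with an Edn1 peak, that at -56.0 kb in 53, that at 66.5 kb in 52 and that at 27.5 kb in 48. Vegfa (chr17:46016993-46032377, minus strand) had 14 elements, of which the start site was present in 45 lists and the element at 78.6 kb, in the intergenic interval towards 1600014C23Rik, in 48. Hbegf (chr18:36504927-36515805, minus strand) had 6 elements from 0.1 to 24.0 kb, led by one at 3.2 kb in exon 3 of 6 (51 lists). Ereg (chr5:91074617-91093649, plus strand) had 5 elements, 3 of them seen in 1 list only, and its main one lay in intron 1 of 4. A peak assigned by distance is not shown to act on that gene.

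After 1 hr of IL-4, H3K27Ac rose over Edn1 and fell at Vegfa. The summed H3K27Ac signal of Edn1 was 507 and 478 normalised tags in ctrl and 811 and 788 after IL-4. The groups did not overlap, and the centred change was 0.71 ± 0.057 on the log2 scale (SE, n = 2 per group, adjusted p = 0.00727). Vegfa had 40.5 and 44.4 tags in ctrl and 25.5 and 26.7 after IL-4, a change of -0.70 ± 0.079 (adjusted p = 0.0124). This call was lost without ctrl replicate 2 or either IL-4 replicate (adjusted p = 0.0553 to 0.0653), whereas that of Edn1 passed without any of the 4 libraries. Hbegf went from 43.3 and 23.7 to 86.1 and 59.0 tags, which did not pass (log2 1.16, adjusted p = 0.102), and Ereg had no H3K27Ac region. Thus 2 of 3 genes were called, against 32.8% of all genes in the H3K27Ac comparison, and 7 of 9 member sites against 40.3% of all sites. Of these 7 sites 1, at Edn1 -5.6 kb, had regions in ctrl only and was tested only through that group.

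By site, the Edn1 promoter region at -0.2 kb had the largest relative H3K27Ac increase of the members, from 11.1 and 13.1 to 43.7 and 45.1 tags (log2 1.93, adjusted p = 0.00224). The strongest Edn1 regions, at -43.0 and -55.4 kb, rose together. The former went from 154.7 and 154.6 to 304.6 and 287.4 tags (log2 0.99) and the latter from 136.9 and 130.6 to 240.1 and 240.2 (log2 0.90, adjusted p = 0.0033 for both). The 66.5 kb region, at 132.3 and 112.2 against 147.0 and 143.7 tags, was not called, and a small region at -5.6 kb (14.7 and 14.1 tags in ctrl) was not listed after IL-4. At 27.6 kb the increase from 57.1 and 53.4 to 75.5 and 71.5 tags (log2 0.47, adjusted p = 0.0182) was lost when any 1 of the 4 libraries was left out (up to 0.0925). The exonic Hbegf region at 3.3 kb rose from 31.6 and 23.7 to 60.6 and 59.0 tags (log2 1.18, adjusted p = 0.0136). At the Vegfa start the decrease (log2 -0.65, adjusted p = 0.011) did not pass without ctrl replicate 2 (0.0527).

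**Figure D1:**
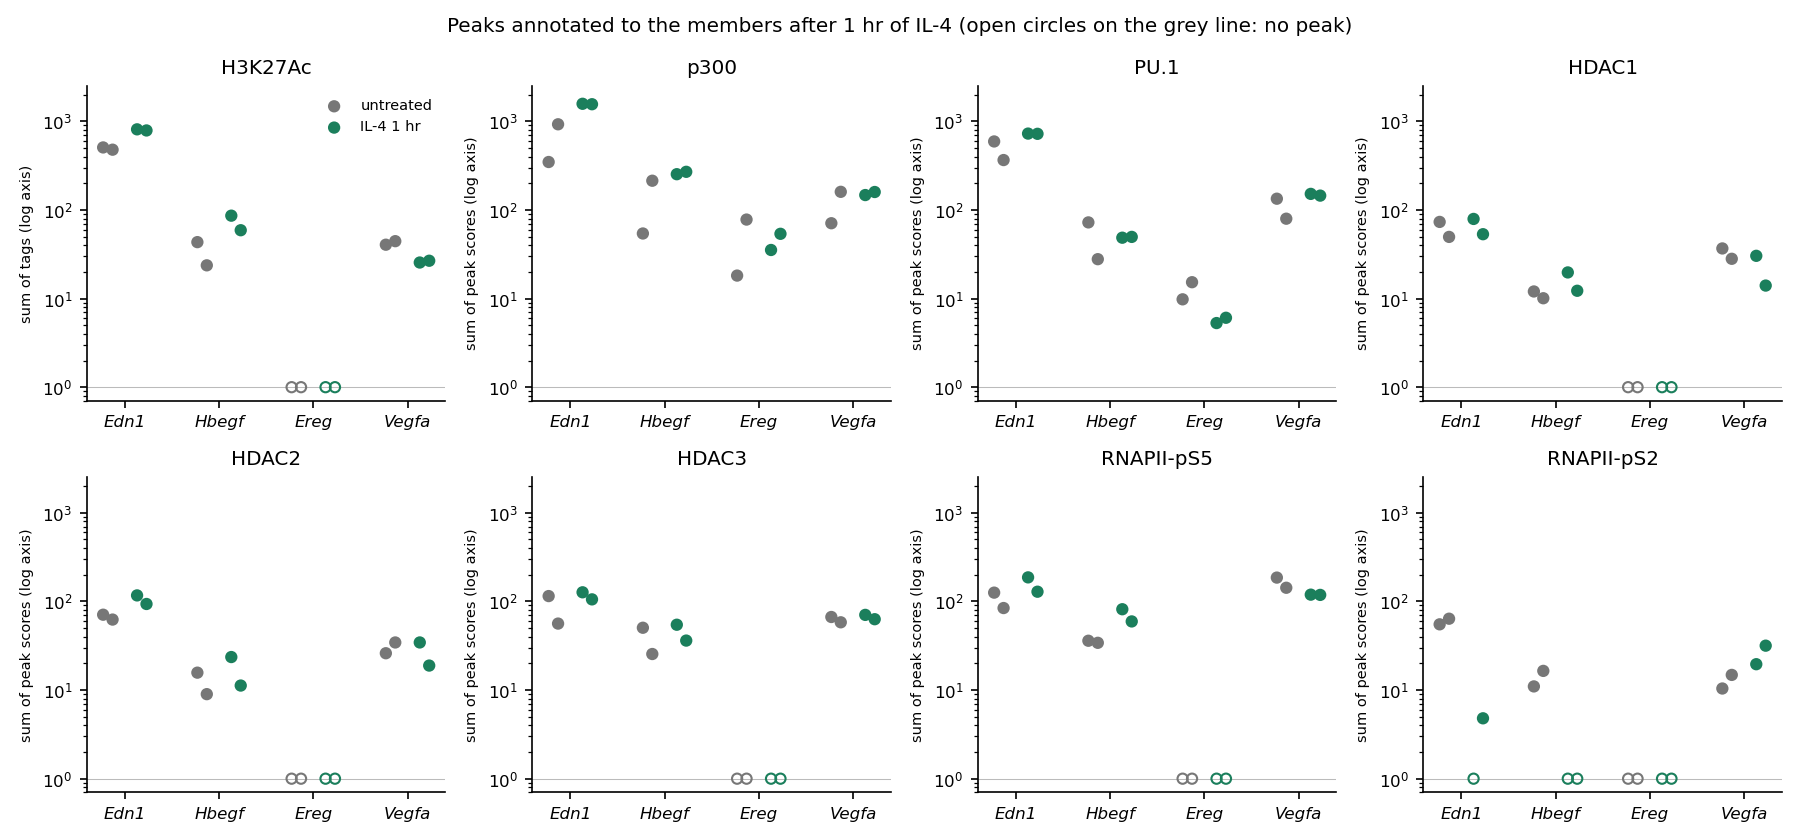
Summed peak scores of the 4 genes in each list of the 1 hr IL-4 experiment, by antibody, on a log axis (H3K27Ac in normalised tags, the others in -log10 units). Points are single lists, open circles are lists with no peak, and RNAPII-pS2 is drawn as labelled. The H3K27Ac points of Edn1 are 811 and 788 after IL-4 and 507 and 478 in ctrl, and those of Vegfa 25.5 and 26.7 against 40.5 and 44.4.

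p300 scores at the Edn1 promoter and at a site 9.2 kb upstream were higher after IL-4. The -9.2 kb site was at 210.0 and 211.2 after IL-4 and had no peak in ctrl. The promoter site at -0.3 kb went from 5.13 and 16.4 to 91.0 and 100.2 (log2 2.71, adjusted p = 0.0472). Without ctrl replicate 1, the list with fewer peaks, it had a log2 change of 2.63 and an adjusted p of 0.0503, and it was also lost without either IL-4 replicate (up to 0.226). These were the 2 of 31 member sites called for p300, against 2.46% of all sites, the first of them with peaks in 1 group only. The sites at -52.5 kb (0 and 18.6 against 134.9 and 123.7), -47.5 kb (5.6 and 29.4 against 140.6 and 122.2, adjusted p = 0.0544) and -27.5 kb (no peak against 34.5 and 42.0) did not pass with all 4 libraries. As gene sums Edn1 had 347 and 925 in ctrl and 1575 and 1557 after IL-4 (log2 0.61, adjusted p = 0.162, and 0.75 with 0.12 without ctrl replicate 1). None of the 4 genes was called for p300, against 0.98% of all genes, and 1 had an unadjusted p of at most 0.05 in limma, against 26.2% of all. The directions of Ereg (log2 -0.64) and Vegfa (-0.33) turned to 0.21 and 0.53 without centring.

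**Figure D2:**
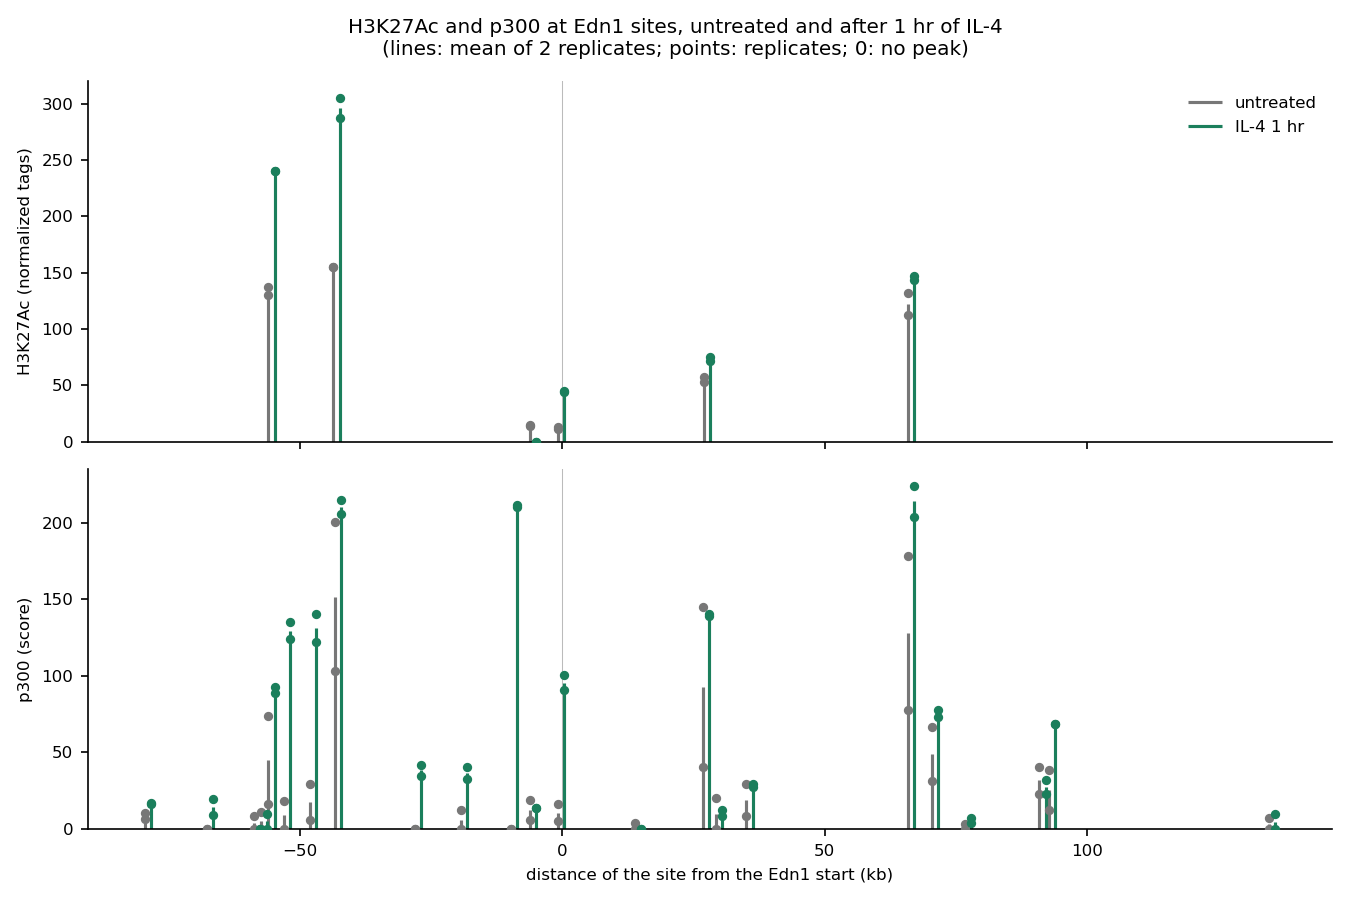
Edn1 sites in the 1 hr IL-4 experiment, placed by distance from the start site in kb, with lines for the mean of 2 replicates and points for single lists (H3K27Ac in tags, p300 in -log10 units, 0 is no peak). For H3K27Ac the sites at -55.4, -43.0 and -0.2 kb are higher in both IL-4 lists than in both ctrl lists; for p300 the -9.2 kb site has scores of 210.0 and 211.2 after IL-4 and no peak in ctrl.

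RNAPII-pS5 at 1 hr of IL-4 gave no call among 3 genes and 13 sites, where 0.972% of all genes and 2.97% of all sites were called. At an unadjusted p of at most 0.05 in limma were 2 of these genes and 5 of these sites, against 14.9% and 20.0% of all. At the Hbegf start the scores were 21.6 and 21.6 in ctrl and 62.8 and 50.5 after IL-4, and the Hbegf sum gave a log2 change of 1.04 ± 0.25 (adjusted p = 0.218). Edn1 sums were 126 and 84.2 in ctrl and 187 and 129 after IL-4 (log2 0.64, adjusted p = 0.321). Vegfa sums were 186 and 143 against 119 and 118 (log2 -0.41, adjusted p = 0.363). The groups did not overlap for any of the 3 genes, but with 2 lists per group this says little. The share of all genes without overlap is not given here. In the RNAPII-pS2 libraries labelled IL-4, Edn1 was at 0 and 4.8 and Hbegf had no peak, whereas the libraries labelled ctrl had 55.1 and 63.8 for Edn1 and 11.0 and 16.4 for Hbegf (adjusted p = 0.0561 and 0.0606). Vegfa was at 19.6 and 31.7 in the libraries labelled IL-4 and 10.4 and 14.8 in those labelled ctrl (adjusted p = 0.217). No gene of 3 and no site of 10 was called for RNAPII-pS2, nor was any gene or site of the whole table (0.0% for both). At an unadjusted p of at most 0.05 in limma were 3 member genes and 9 member sites, against 1786 genes in all (16.8%) and 21.6% of all sites. All 3 differences change sign if the peak names are right.

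No difference in the deacetylases or PU.1 passed after 1 hr of IL-4. The call rate was 0.0% of genes and 0.0% of sites for HDAC1, for HDAC2, for HDAC3 and for PU.1. At an unadjusted p of at most 0.05 in limma were 1084, 998, 925 and 1604 genes (8.8%, 9.54%, 15.4% and 10.2%). Among the members no gene reached that level, and 1 of 11 HDAC1, 2 of 12 HDAC2, 2 of 13 HDAC3 and 5 of 27 PU.1 sites did. Over all sites the shares were 14.0%, 13.9%, 19.3% and 12.1%. HDAC3 scores of Vegfa, all at 78.6 kb, were 66.7 and 58.1 in ctrl and 70.5 and 63.0 after IL-4, with overlapping groups. HDAC2 at the Edn1 start was at 2.6 and 0 in ctrl and 14.1 and 11.0 after IL-4. PU.1 at the Edn1 -52.6 kb site was at 8.4 and 3.9 in ctrl and 46.9 and 48.4 after IL-4, the same site at which p65 differed with pretreatment. PU.1 over Ereg was at 9.8 and 15.3 in ctrl and 5.29 and 6.07 after IL-4 (log2 -1.40, adjusted p = 0.49).

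The LPS comparison, ctrl/LPS against ctrl/ctrl, asked what 1 hr of LPS does in cells without IL-4. RNAPII-pS2 rose over Hbegf and Edn1. Hbegf was at 6.06 and 10.8 in ctrl/ctrl and 37.5 and 50.1 in ctrl/LPS (log2 2.20 ± 0.36, adjusted p = 0.00762), a call that passed in all 8 fits that left out 1 library. Edn1 went from 126 and 139 to 304 and 256 (log2 0.86 ± 0.24, adjusted p = 0.0413), lost in 6 of 8 such fits (0.0582 to 0.148), all but those without an IL-4 PT/ctrl library, and reversed in sign (-0.10) when only the highest peak of the gene was used. Vegfa, at 142 and 144 against 118 and 85.5, did not pass (log2 -0.73, adjusted p = 0.0694). For RNAPII-pS2 2 of 4 genes were called against 29.8% of all genes, and 10 of 21 sites against 39.4% of all sites. The Hbegf start site had no peak in ctrl/ctrl and 10.9 and 8.0 in ctrl/LPS (adjusted p = 0.00139), and the Edn1 -56.9 kb site had none in ctrl/ctrl and 34.3 and 24.0 in ctrl/LPS (adjusted p = 0.000416). At Vegfa 78.6 kb the scores were 98.5 and 105.9 in ctrl/ctrl and 71.6 and 48.9 in ctrl/LPS (log2 -0.98, adjusted p = 0.0309), which was lost in 5 of 8 fits that left out 1 library (ctrl/ctrl replicates 1 and 2, ctrl/LPS replicate 2 and both IL-4 PT/LPS libraries, up to 0.133).

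RNAPII-pS5 with LPS gave no call in 3 genes (27.9% of all genes) and calls at 2 of 16 sites (35.9% of all sites), both of Edn1. At an unadjusted p of at most 0.05 in limma were 2 of the 3 genes, against 41.3% of all genes. Edn1 was at 50.3 and 65.9 in ctrl/ctrl and 91.5 and 86.1 in ctrl/LPS (log2 0.95, adjusted p = 0.0654). Hbegf was at 4.89 and 6.72 against 26.3 and 8.16 (adjusted p = 0.0762). The RNAPII-pS5 lists of ctrl/LPS had 14476 and 15349 peaks and those of ctrl/ctrl 20803 and 19279.

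p65 with LPS rose over Edn1. The Edn1 sums were 37.1 and 54.1 in ctrl/ctrl and 311 and 320 in ctrl/LPS (log2 1.18 ± 0.26, adjusted p = 0.0211, and 2.82 without centring). The call was lost without ctrl/ctrl replicate 1 or either ctrl/LPS replicate (0.0637 to 0.0776), and with intergenic peaks left out the value was -0.60. Vegfa had p65 sums of 27.4 and 28.04 in ctrl/ctrl and 53.9 and 41.0 in ctrl/LPS, so the raw scores were higher with LPS, but relative to the shared genes it was lower (log2 -0.88, adjusted p = 0.0466) and without centring higher (0.76, adjusted p = 0.0371). Hbegf was at 0 and 4.81 against 20.3 and 20.4 (log2 1.38, adjusted p = 0.135, and without centring 3.02 with 0.0073). The p65 calls were 2 of 3 genes against 29.1% of all genes and 12 of 24 sites against 37.9% of all sites, with 10 of 19 Edn1 sites higher. Of the 8 fits that left out 1 library, the Vegfa call passed only in that without ctrl/LPS replicate 1 (0.0549 to 0.133 in the other 7). At Edn1 -42.9 kb p65 was at 6.6 and 5.2 in ctrl/ctrl and 49.9 and 48.0 in ctrl/LPS (log2 2.02, adjusted p = 0.00251), and the -56.9 kb site had no peak in ctrl/ctrl against 55.7 and 60.4 (adjusted p = 0.000237). One Edn1 site, at -55.5 kb, was lower relative to the shared sites (log2 -1.58, adjusted p = 0.00863, and -0.54 with 0.16 without centring).

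**Figure D3:**
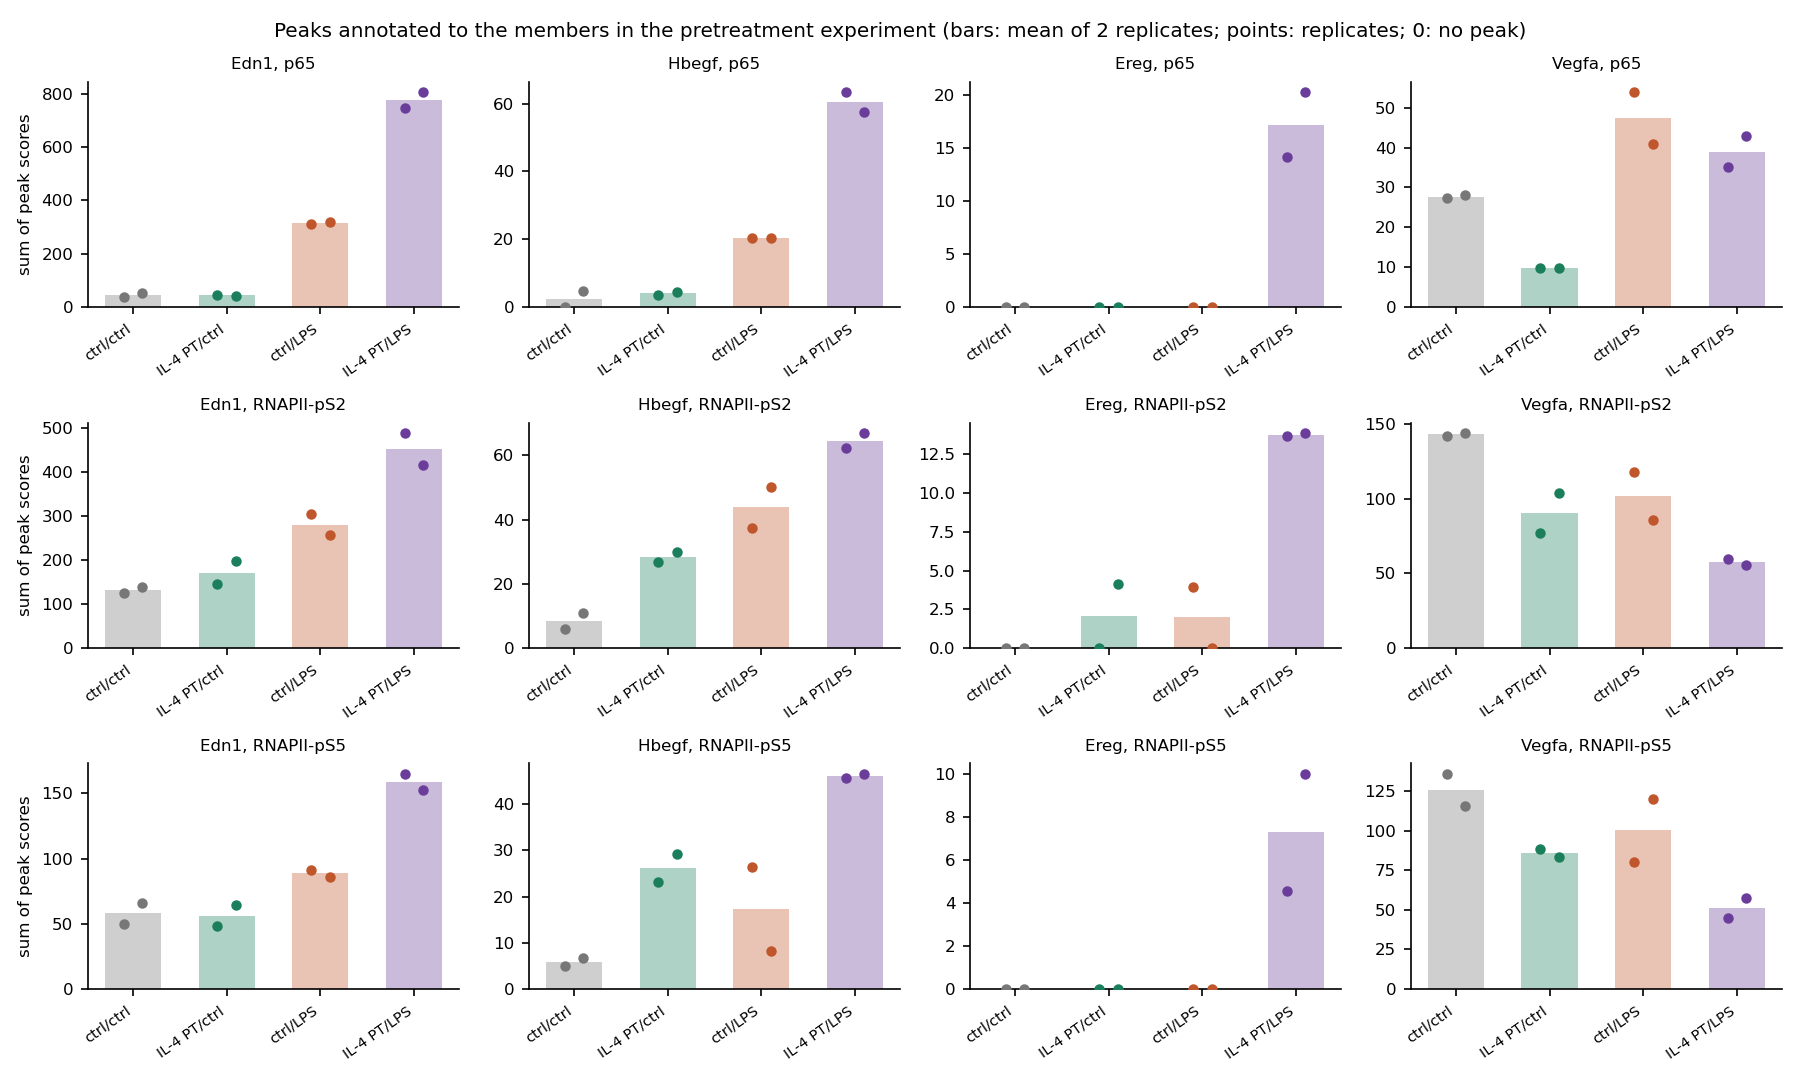
Summed peak scores (-log10 units) of the 4 genes in the pretreatment experiment, by antibody and group, with bars for the mean of 2 replicates and points for single lists (0 is no peak). For Edn1 p65 the 2 IL-4 PT/LPS lists are at 745 and 805, the ctrl/LPS lists at 311 and 320, and the 4 lists without LPS between 37.1 and 54.1.

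The comparison of IL-4 PT/ctrl with ctrl/ctrl asked what 24 hr of IL-4 leaves behind without LPS. It shares the ctrl/ctrl lists with the LPS comparison. RNAPII-pS2 over Hbegf rose from 6.06 and 10.8 to 26.7 and 29.8 (log2 1.87 ± 0.36, adjusted p = 0.0217), lost without ctrl/ctrl replicate 1 or either IL-4 PT/ctrl replicate (0.0725 to 0.082). RNAPII-pS5 over Hbegf was at 4.89 and 6.72 in ctrl/ctrl and 23.2 and 29.2 in IL-4 PT/ctrl (log2 2.11, adjusted p = 0.0803). The RNAPII-pS2 site at the Hbegf start had no peak in ctrl/ctrl and 12.1 and 11.2 in IL-4 PT/ctrl (adjusted p = 0.00123). p65 over Vegfa fell from 27.4 and 28.04 to 9.91 and 9.78 (log2 -1.35 ± 0.25, adjusted p = 0.025, lost in 6 of 8 fits that left out 1 library, all but those without a ctrl/LPS library, 0.0507 to 0.0677). The Vegfa decrease came from the sites at 151.3 kb (14.6 and 12.2 against no peak, adjusted p = 0.0192) and -0.2 kb (4.7 and 4.9 against no peak, adjusted p = 0.0376), while the 78.6 kb site was at 8.0 and 11.0 in ctrl/ctrl and 9.9 and 9.8 in IL-4 PT/ctrl. The former was lost without any 1 of the 4 ctrl/ctrl and IL-4 PT/ctrl libraries (up to 0.0685) and the latter in 6 of 8 fits, all but those without a ctrl/LPS library (up to 0.109).

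For Edn1 the sums after 24 hr of IL-4 did not pass in any of the 3 antibodies, yet single sites did. RNAPII-pS2 at -52.6 kb had no peak in ctrl/ctrl and 16.2 and 24.0 in IL-4 PT/ctrl (adjusted p = 0.000779), and at -8.7 kb no peak against 7.7 and 12.7 (adjusted p = 0.00167). p65 at 27.5 kb had no peak against 5.8 and 6.4 (adjusted p = 0.00239). RNAPII-pS5 at 6.9 kb, the end of the Edn1 transcript, had no peak against 5.2 and 4.7 (adjusted p = 0.00654). In all, 1 of 4 genes was called for RNAPII-pS2 (16.2% of all genes), none of 3 for RNAPII-pS5 (8.94%, with 1 at an unadjusted p of at most 0.05 in limma against 22.9% of all) and 1 of 3 for p65 (10.7%). Of the sites 5 of 19 (27.9% of all sites), 4 of 18 (19.8%) and 4 of 10 (13.1%) were called for the same antibodies. Of the 4 RNAPII-pS5 sites 1, at Edn1 -52.5 kb, had peaks in IL-4 PT/ctrl only and was tested only through that group.

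The comparison of IL-4 PT/LPS with IL-4 PT/ctrl asked what 1 hr of LPS does in pretreated cells. p65 over Edn1 rose from 46.8 and 40.2 to 745 and 805 (log2 1.87 ± 0.26, adjusted p = 0.00523, and 4.16 without centring), and this passed in all 8 fits that left out 1 library. RNAPII-pS5 over Edn1 rose from 48.1 and 64.5 to 165 and 152 (log2 1.62 ± 0.31, adjusted p = 0.015, lost without IL-4 PT/ctrl replicate 1 or either IL-4 PT/LPS replicate, 0.0572 to 0.068). RNAPII-pS2 over Edn1 rose from 146 and 197 to 488 and 417 (log2 1.08 ± 0.24, adjusted p = 0.0244, lost without any 1 of these 4 libraries, 0.0532 to 0.105). Thus all 3 antibodies were higher over the peaks annotated to Edn1 with LPS after pretreatment. With intergenic peaks left out the Edn1 p65 call was lost (adjusted p = 0.319). The Edn1 RNAPII-pS2 call was also lost in that setting, and with only the highest peak of the gene (up to 0.456). Vegfa moved the other way in RNAPII-pS2, from 77.2 and 104 to 59.4 and 55.8 (log2 -0.97 ± 0.25, adjusted p = 0.0364, and -0.64 with 0.139 without centring), lost in 6 of 8 fits, all but those without a ctrl/LPS library (0.0528 to 0.129). Vegfa RNAPII-pS5 was at 88.6 and 83.4 against 44.6 and 57.5 (log2 -0.65, adjusted p = 0.192), and Vegfa p65 at 9.91 and 9.78 against 35.2 and 42.8 gave a log2 of -0.31 (adjusted p = 0.389) that turned to 1.98 (0.0008) without centring. Hbegf went from 26.7 and 29.8 to 62.2 and 66.9 in RNAPII-pS2 (adjusted p = 0.142) and from 23.2 and 29.2 to 45.5 and 46.4 in RNAPII-pS5 (0.31). In p65 it went from 3.61 and 4.51 to 63.4 and 57.4 (log2 1.61, 0.0962, and 3.90 with 0.00201 without centring). The groups did not overlap in any of these, and the share of all genes without overlap is not given here.

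Ereg appeared in the pretreatment experiment almost only in the IL-4 PT/LPS lists. Its p65 sums there were 14.2 and 20.2, with no peak in the other 6 lists. Against IL-4 PT/ctrl the sign of the fitted value after centring rests on the floor: with a floor 4 times as high it was -0.60 and with the upper 50% of peaks -0.65. RNAPII-pS5 was at 4.58 and 9.99 with no peak elsewhere. RNAPII-pS2 was at 13.7 and 13.8, with 0 and 4.14 in IL-4 PT/ctrl and 3.97 and 0 in ctrl/LPS (adjusted p = 0.0303, lost in 5 of 8 fits, up to 0.116). The 3 antibodies gave peaks at one position, 8.6 to 8.7 kb into the gene, in the intronic sequence shown above. In the 1 hr experiment p300 had a peak at this position in all 4 lists, at 18.2 and 71.4 in ctrl and 35.3 and 53.8 after IL-4. The calls for LPS in pretreated cells were 3 of 4 genes for RNAPII-pS2 (23.1% of all genes), 2 of 4 for RNAPII-pS5 (21.9%) and 2 of 4 for p65 (26.8%), 1 of the calls for each of the last 2 being Ereg with peaks in IL-4 PT/LPS only. Of the sites 18 of 27 were called for RNAPII-pS2 (34.8% of all sites), 10 of 22 for RNAPII-pS5 (32.2%) and 19 of 31 for p65 (39.3%), the last all higher. Among these calls 4, 5 and 7 sites had peaks in 1 group only.

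The effect of IL-4 pretreatment under LPS, IL-4 PT/LPS against ctrl/LPS compared cells that had both received LPS. Ereg had p65 and RNAPII-pS5 peaks in IL-4 PT/LPS and none in ctrl/LPS, as given above, and for RNAPII-pS2 it was higher, at 13.7 and 13.8 against 3.97 and 0 (adjusted p = 0.0338, lost in 5 of 8 fits that left out 1 library, 0.0597 to 0.128). Edn1 was at 311 and 320 in ctrl/LPS and 745 and 805 in IL-4 PT/LPS for p65 (log2 0.79 ± 0.26, adjusted p = 0.114, and 1.296 with 0.022 without centring). It was at 304 and 256 against 488 and 417 for RNAPII-pS2 (log2 0.65, adjusted p = 0.153) and at 91.5 and 86.1 against 165 and 152 for RNAPII-pS5 (log2 0.55, adjusted p = 0.289). The groups did not overlap in any of the 3, but the sums did not pass, and the share of all genes without overlap is not given here. Vegfa fell in RNAPII-pS5 from 80.1 and 120 to 44.6 and 57.5 (log2 -1.24 ± 0.31, adjusted p = 0.0498, and -0.95 with 0.0925 without centring), lost in 8 of 8 fits that left out 1 library (0.0688 to 0.167). Vegfa RNAPII-pS2 was at 118 and 85.5 against 59.4 and 55.8 (log2 -0.85, adjusted p = 0.0859) and Hbegf RNAPII-pS2 at 37.5 and 50.1 against 62.2 and 66.9 (log2 0.53, adjusted p = 0.418). The calls were 1 of 4 genes for RNAPII-pS2 (9.97% of all genes), 2 of 4 for RNAPII-pS5 (12.4%) and 1 of 4 for p65 (12.6%), the last and 1 of those for RNAPII-pS5 being Ereg with peaks in 1 group only.

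By site, p65 was called higher under LPS at 8 of 24 tested Edn1 sites. At -8.4 kb p65 was at 71.1 and 81.1 in IL-4 PT/LPS and had no peak in the other 6 lists. At -18.7 kb it was at 54.8 and 65.3 against 7.0 and 6.4 in ctrl/LPS (log2 2.89 ± 0.18, adjusted p = 0.000319), and at -52.6 kb at 76.1 and 85.7 against 14.5 and 13.7 (log2 2.25 ± 0.17, adjusted p = 0.000426). These calls at -18.7 and -52.6 kb passed in all 8 fits that left out 1 library. The sites at -101.5 kb (23.6 and 18.7) and -9.2 kb (23.0 and 16.8) also had p65 peaks in IL-4 PT/LPS only. Also called were -67.3 kb (50.6 and 38.9 against 6.2 and 0) and -15.5 kb (35.5 and 47.7 against 0 and 8.6). These calls were less stable when 1 library was left out. That at -67.3 kb was lost in 2 of 8 fits (log2 2.55 to 4.81) and that at -15.5 kb in 6 of 8 (log2 1.98 to 4.69). Some strong Edn1 sites were near equal and not called. Of these -56.9 kb was at 61.7 and 82.9 against 55.7 and 60.4, 71.0 kb at 43.5 and 62.4 against 55.0 and 57.4, and 27.5 kb at 27.1 and 22.5 against 21.8 and 25.3. Others were higher in both IL-4 PT/LPS lists but not called. The strongest site, at -42.9 kb, was at 97.6 and 87.8 against 49.9 and 48.0, and 62.0 kb at 47.4 and 30.6 against 19.6 and 17.8. The start site itself was weak, at 4.5 and 6.2 in IL-4 PT/LPS and 4.7 and 0 in ctrl/LPS. Of the Hbegf sites, 18.4 kb (12.5 and 14.7) and 21.9 kb (5.3 and 7.8) had p65 peaks in IL-4 PT/LPS only, while 3.4 kb was at 34.2 and 28.5 against 16.6 and 14.7 and not called. At Vegfa 151.3 kb p65 was lower, at 0 and 4.4 against 17.7 and 11.8 (log2 -2.86, adjusted p = 0.0125, lost without ctrl/LPS replicate 1, 0.0604). At 78.6 kb it was at 35.2 and 38.4 against 33.4 and 29.2 and not called. In all 12 of 32 p65 sites were called, 11 of them higher, against 31.8% of all sites, with 7 of the 12 having peaks in 1 group only, and IL-4 PT/LPS also had more p65 peaks than ctrl/LPS over the genome.

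**Figure D4:**
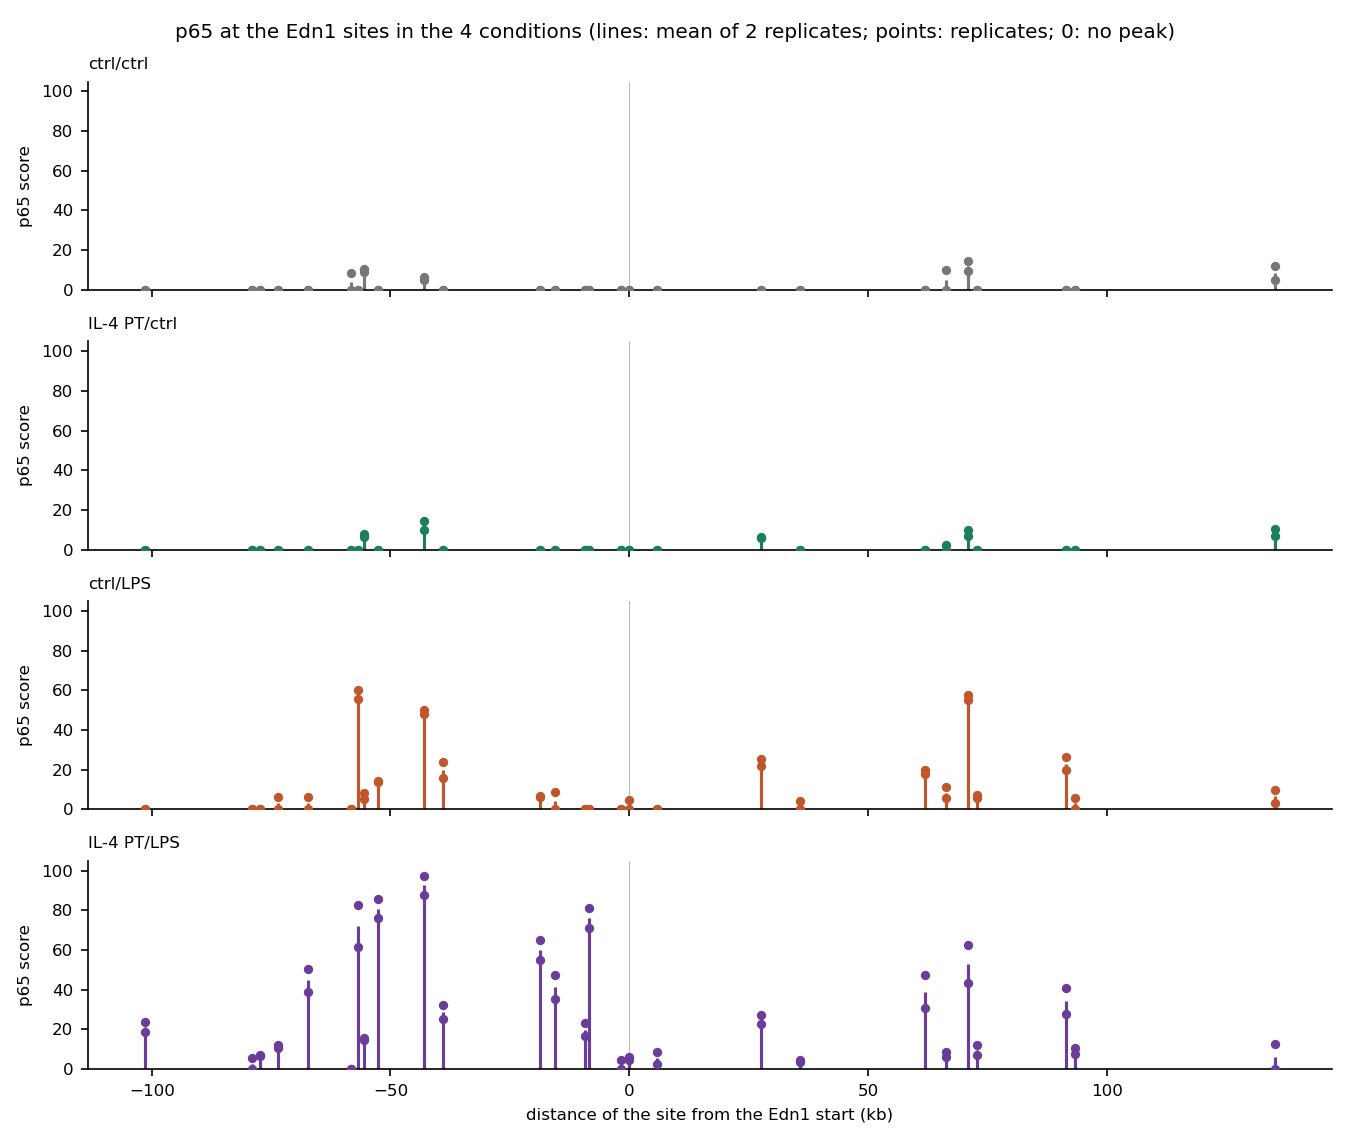
p65 scores (-log10 units) at the Edn1 sites by distance from the start site in kb, in 1 panel for each of the 4 groups, with lines for the mean of 2 replicates and points for single lists. The sites at -52.6, -18.7 and -8.4 kb are higher in both IL-4 PT/LPS lists (54.8 to 85.7) than in both ctrl/LPS lists (0 to 14.5), whereas at -56.9 and 27.5 kb the LPS groups are close.

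RNA polymerase differed at some of the same positions. RNAPII-pS2 at Edn1 -8.7 kb was at 45.1 and 29.1 in IL-4 PT/LPS and 7.7 and 12.7 in IL-4 PT/ctrl, with no peak without pretreatment (adjusted p = 0.000785 under LPS), and RNAPII-pS5 there at 19.6 and 17.4 with no peak in ctrl/LPS (adjusted p = 0.00615). At 6.9 kb, the transcript end, RNAPII-pS5 was at 27.8 and 26.0 against 2.4 and 3.8 in ctrl/LPS (log2 2.95 ± 0.27, adjusted p = 0.00232) and RNAPII-pS2 at 37.9 and 29.2 against no peak (adjusted p = 0.000785). Near the start, at 0.8 kb, RNAPII-pS5 was at 23.9 and 17.4 against 4.9 and 0 (adjusted p = 0.0495, lost in 5 of 8 fits, up to 0.168). Hbegf had RNAPII-pS5 at 18.3 kb in IL-4 PT/LPS only (9.8 and 8.6). RNAPII-pS5 at Vegfa 78.6 kb fell from 47.2 and 78.5 to 7.6 and 14.5 (log2 -2.73 ± 0.43, adjusted p = 0.00866, passed in all 8 fits that left out 1 library), while at the Vegfa start it was 32.9 and 32.7 in ctrl/LPS and 37.0 and 43.0 in IL-4 PT/LPS, not called. The RNAPII-pS5 decrease annotated to Vegfa was thus that of an intergenic element downstream of the gene, and not of the start site. RNAPII-pS2 at the Vegfa start was at 43.9 and 36.6 in ctrl/LPS and 24.0 and 15.9 in IL-4 PT/LPS, not called. Site calls were 10 of 27 for RNAPII-pS2 (21.7% of all sites) and 9 of 22 for RNAPII-pS5 (20.3%), of which 4 each had peaks in 1 group only.

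**Figure D5:**
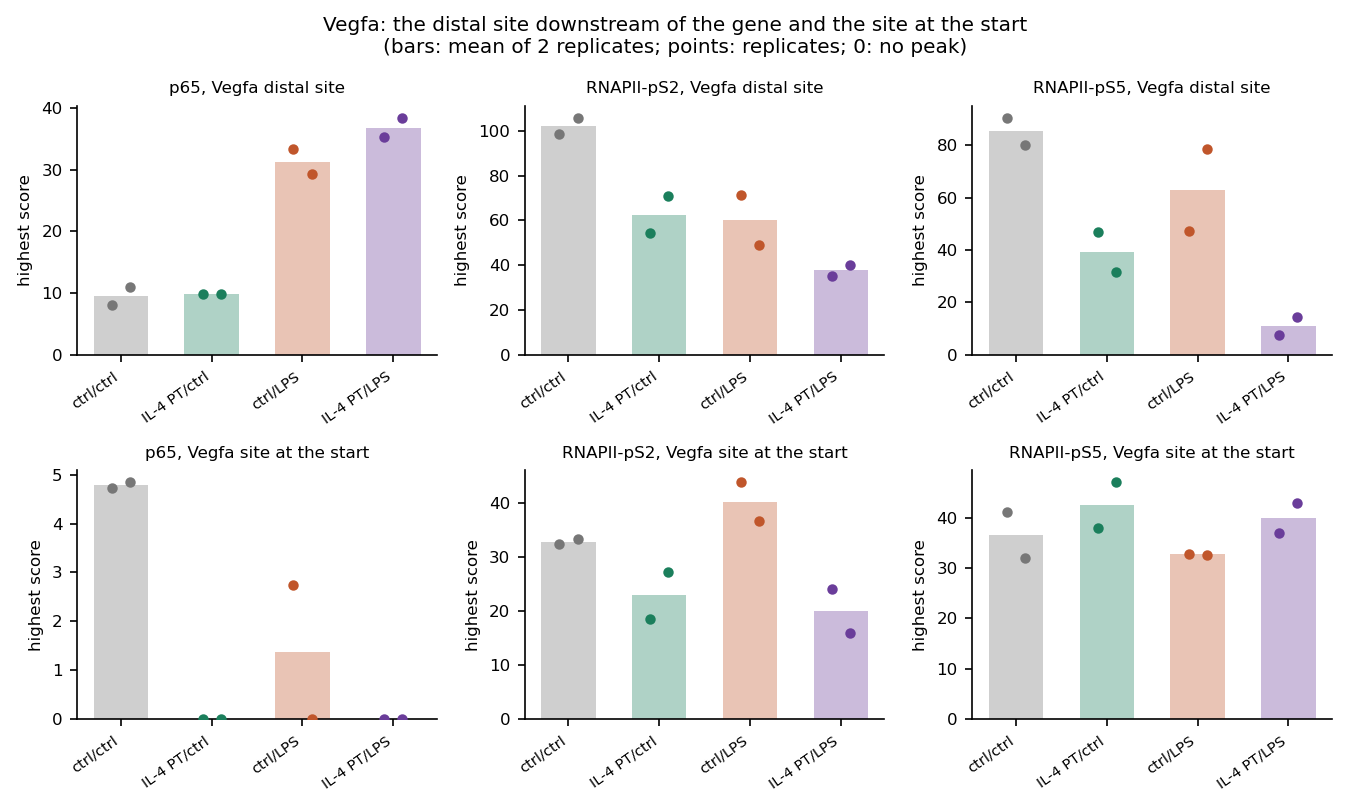
Scores at the Vegfa start site and the 78.6 kb element in the pretreatment experiment, by antibody (-log10 units), with bars for the mean of 2 replicates and points for single lists. RNAPII-pS5 at 78.6 kb is 90.5 and 80.1 in ctrl/ctrl and 7.6 and 14.5 in IL-4 PT/LPS, while at the start the 8 lists lie between 32.1 and 47.1.

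Counted by presence, 36 p65 sites of the members had a peak in both replicates at 7 positions in ctrl/ctrl, 7 in IL-4 PT/ctrl, 17 in ctrl/LPS and 29 in IL-4 PT/LPS, and 8 sites (5 of Edn1, 2 of Hbegf and 1 of Ereg) had p65 peaks in both IL-4 PT/LPS lists and in no other. The number of p65 peaks per list over the genome moved with these counts, and its part in them was not tested. Of 36 RNAPII-pS2 sites the counts were 8, 16, 18 and 26, and of 27 RNAPII-pS5 sites 9, 12, 9 and 18. The same counts over all sites are not given here, so these describe the members and show nothing particular to them.

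The interaction asked whether the LPS change differed between pretreated and other cells. By gene sums Ereg p65 was called, through its peaks in IL-4 PT/LPS only, 1 of 4 genes against 7.42% of all genes. No member gene was called for RNAPII-pS2 or RNAPII-pS5 (0 of 4 each, against 5.17% and 5.03% of all genes). In each, 1 member gene had an unadjusted p of at most 0.05 in limma, against 22.9% and 22.6% of all genes. By site p65 had 10 of 32 calls against 23.2% of all sites, RNAPII-pS2 10 of 27 against 19.7% and RNAPII-pS5 4 of 23 against 17.1%, and 7, 4 and 4 of these calls were sites with peaks in 1 group only. The Edn1 p65 sites at -52.6 and -18.7 kb were among them (log2 2.06 and 2.70, adjusted p = 0.00376 and 0.00269), though the ctrl/ctrl and IL-4 PT/ctrl lists of both had no peak and the values depend on the floor. At Edn1 27.5 kb the p65 interaction was negative (log2 -2.61, adjusted p = 0.00375), as was that of RNAPII-pS2 at the Hbegf start (log2 -2.64, adjusted p = 0.0106, 0.0517 without ctrl/ctrl replicate 1), where each treatment alone gave peaks and ctrl/ctrl had none. When a peak in every list was required, none of the 24 site interactions could be called.

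Genes of the same pathways, 50 in 7 lists chosen with earlier results of these data known, were read beside the members. After 1 hr of IL-4, H3K27Ac rose at 12 and fell at 6 of 34 list genes tested, where 32.8% of all genes were called. Flt1, a VEGF receptor, went from 364 and 359 to 1092 and 1096 tags (log2 1.60, adjusted p = 0.00117), and Edn2, a second endothelin, from 316 and 298 to 529 and 535 (log2 0.80, adjusted p = 0.0059). Nrg1, a neuregulin ligand, went from 0 and 13.7 to 53.3 and 42.7 (adjusted p = 0.0144). Of the ERBB feedback genes, Lrig1 fell from 58.0 and 77.4 to 22.2 and 24.0 (log2 -1.53, adjusted p = 0.0126) and Spry1 rose from 38.1 and 36.6 to 72.6 and 76.8 (log2 1.01, adjusted p = 0.00467). Dusp6, a phosphatase of the ERK pathway, fell from 920 and 871 to 404 and 400 (log2 -1.15, adjusted p = 0.00305), and Egfr, the receptor of HB-EGF and epiregulin, from 410 and 430 to 280 and 290 (log2 -0.55, adjusted p = 0.0121). With LPS alone, 10 list genes rose and 3 fell of 36 in RNAPII-pS2, 7 rose and 3 fell of 32 in RNAPII-pS5, and 8 rose and 1 fell of 33 in p65, where 29.8%, 27.9% and 29.1% of all genes were called. Spry2, an inhibitor of receptor kinase signalling, went from 7.09 and 21.4 to 151 and 158 in RNAPII-pS2 (log2 3.42, adjusted p = 0.00577). The called hypoxia genes moved both ways in RNAPII-pS2: the oxygen sensor Egln1 went from 15.4 and 12.1 to 5.15 and 0 (log2 -2.40, adjusted p = 0.0214), the hypoxia factor Epas1 from 40.4 and 35.3 to 19.7 and 11.8 (log2 -1.53, adjusted p = 0.0268), and its paralog Hif1a from 87.3 and 88.2 to 196 and 190 (log2 0.91, adjusted p = 0.0319). For pretreatment under LPS the calls were 1 up and 1 down of 36 in RNAPII-pS2, 0 up and 3 down of 29 in RNAPII-pS5, and 4 up and 1 down of 37 in p65, where 9.97%, 12.4% and 12.6% of all genes were called. Among these Areg, amphiregulin, which lies next to Ereg, had p65 sums of 15.9 and 12.0 in IL-4 PT/LPS and no peak in the other 6 lists, and Mme, the protease neprilysin that degrades endothelin, had RNAPII-pS2 sums of 25.0 and 37.5 against 12.2 and 7.92 in ctrl/LPS (log2 1.60, adjusted p = 0.0286). Of those that fell, Egfr in RNAPII-pS5 went from 18.4 and 18.2 in ctrl/LPS to 4.58 and 0 (log2 -3.05, adjusted p = 0.0157). Spry2 went from 36.3 and 44.6 to 12.8 and 13.3 in RNAPII-pS5 (log2 -1.91, adjusted p = 0.0405).

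Over the 56 samples, after taking off the mean of each antibody and experiment, the genes whose centred sums followed a member most closely by Pearson correlation among 11253 candidates were Tmem26 for Hbegf (0.864), Tiam1 for Edn1 (0.805), Zfp821 for Vegfa (0.78) and Cyp4f17 for Ereg (0.75). Among the members, Hbegf and Edn1 had 0.772, Hbegf and Vegfa -0.776 and Edn1 and Vegfa -0.605. The points share libraries and come in 28 groups of 2, so these values are descriptions. Ereg had peaks in 16 of the 56 lists and Cyp4f17 in 30. Their other lists took the floor, so the correlation of these 2 genes depends on it.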

How the data were processed

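Cells were cross-linked with DSG and formaldehyde, and ChIP-seq reads were aligned to mm10. The submitters' processing notes name BWA 0.7.10, SAMtools 0.1.19, HOMER 4.2 and MACS2 2.0.10. The authors called peaks per sample (stated q-value cut-off 0.01, blacklisted regions removed) and deposited annotated lists. The deposited Peak Score is a -log10 p or q value for MACS2 lists, which of the 2 not being given in the sources used here, and a normalised tag signal in 1001 bp regions for H3K27Ac. Read depth is unknown, and no input control is stated.

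Scores were summed per gene, or peaks overlapping by at least 1 bp were merged into sites with the highest score kept. Missing values took the lowest score of the antibody's lists, log2 values were centred on the median of the features present in every list, and features with a peak in at least 2 lists were tested with limma 3.58.1 (R 4.3.3) and Benjamini-Hochberg adjustment over all of them, without a block, calling an adjusted p of at most 0.05. In each contrast, features with no peak in either group were left out. An exact permutation test of 2 against 2 cannot go below p = 0.333. Tables were handled with Python 3.11.15, pandas 2.3.3 and NumPy 2.4.6. Fits were tested on simulated data. The 4 genes were named in full. Pathway genes named are examples from the called genes of each list, ranked by size of change, of which at most 3 per list and comparison could be named. Site examples beyond this, the Edn1 -52.6 kb sequence and the 2 kb marker window were chosen after the values were seen. The members and lists were chosen with earlier results of these data known. No sequence is shown for Hbegf. The HDAC3 antibody has in the labels the catalogue number of the H3K27Ac antibody.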

Additional observations from a re-analysis of the deposited data

Results flagged for a closer look

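The change with LPS was called different between IL-4-pretreated cells and cells without pretreatment for 1 gene sum and 24 sites. The calls come from an interaction term in limma (adjusted p in brackets). The values are the log2 change with LPS in pretreated cells minus that in the others. Most involve a group with no peak, so their size depends on the floor, and 15 of the 24 sites, like the Ereg sum, had peaks in 1 group only and were tested only through it. For these 15 sites and the Ereg sum, the other groups are a constant floor with no spread. Their values and adjusted p are therefore listed only as output of the fit, and are no test of a difference. Ereg had a fitted p65 gene sum interaction of 3.04 (0.012) and a fitted p65 site interaction of 3.23 (0.0027) at 8.6 kb. Both rest on p65 peaks in the IL-4 PT/LPS lists only.

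For p65 at Edn1 the interactions were 3.54 (0.0026) at -101.5 kb, 1.93 (0.0052) at -77.3 kb, 2.06 (0.0038) at -52.6 kb, 2.70 (0.0027) at -18.7 kb, 3.44 (0.0027) at -9.2 kb, 5.39 (0.0026) at -8.4 kb and -2.61 (0.0037) at 27.5 kb. At Hbegf they were 2.91 (0.0026) at 18.4 kb and 1.83 (0.01) at 21.9 kb. The Edn1 values at -101.5, -77.3, -9.2 and -8.4 kb and both Hbegf values rest on peaks in IL-4 PT/LPS only, and are no test. The 8 p65 sites with a positive value at Edn1 and Hbegf were at their highest in IL-4 PT/LPS, the group with the most p65 peaks over the genome, and the part of this in the values was not tested.

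For RNAPII-pS2 at Edn1 the interactions were 1.70 (0.018) at -112.1 kb, 3.13 (0.017) at -79.0 kb, 3.42 (0.0055) at -67.3 kb, -2.41 (0.008) at -52.6 kb, 1.89 (0.034) at -8.7 kb, 3.28 (0.0059) at 6.9 kb and -1.58 (0.03) at 91.5 kb. At Hbegf they were 1.39 (0.031) at 18.2 kb, 1.64 (0.026) at 12.4 kb and -2.64 (0.011) at 0.1 kb. The values at Edn1 -112.1, -79.0 and -67.3 kb and Hbegf 12.4 kb rest on peaks in IL-4 PT/LPS only, and are no test. At the Edn1 -52.6 kb site the p65 value was positive and the RNAPII-pS2 value negative.

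For RNAPII-pS5 the interactions at Edn1 were 1.99 (0.014) at -67.3 kb, -2.59 (0.011) at -52.5 kb and 1.54 (0.027) at 61.9 kb, and at Hbegf 2.49 (0.01) at 18.3 kb. All of these RNAPII-pS5 sites had peaks in 1 group only, so the values are no test. The group was IL-4 PT/ctrl at -52.5 kb and IL-4 PT/LPS at the others. In fits that left out 1 library, those at Edn1 -67.3 and 61.9 kb (RNAPII-pS5), Edn1 -79.0 kb and Hbegf 12.4 kb (RNAPII-pS2) were lost in 6 of 6, and that at Hbegf 18.2 kb (RNAPII-pS2) in 8 of 8 (adjusted p up to 0.12). Those of RNAPII-pS2 at Edn1 -8.7 and 91.5 kb were lost in 7 of 8 (up to 0.11 and 0.107) and that at -112.1 kb in 5 of 6 (up to 0.0761). Single fits lost that of RNAPII-pS2 at Hbegf 0.1 kb (0.0517 without ctrl/ctrl replicate 1) and that of RNAPII-pS5 at Edn1 -52.5 kb (0.0558 without IL-4 PT/LPS replicate 2). For sites with peaks in 1 group only, the lists that hold the peaks could not be left out.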

How the results depend on the processing

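Of 1568 alternative values of the gene changes, 1395 kept their side of the threshold with no called direction turned, 109 lost a call, 57 gained one and 7 changed sign with at least 1 of the values called. Of the 1395, 48 changed sign with neither value called. Read depth is unknown, and low scores near the floor carry little information.

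The main counts of member gene changes called were 2 of 26 tested after 1 hr IL-4 and 2 of 10 after 24 hr IL-4. They were 4 of 10 after LPS and 7 of 12 after LPS in pretreated cells. For pretreatment under LPS they were 4 of 12 and for the interaction 1 of 12. In that order site counts were 9 of 126, 13 of 47, 24 of 61, 47 of 80, 31 of 81 and 24 of 82. All these counts pool the antibodies and include calls with peaks in 1 group only. Here and below they compare settings, and not the members with other genes. The shares of all genes and sites called are given above by antibody.

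At an unadjusted p of at most 0.05 the gene counts were 9, 4 and 7 for the first 3, 8 for pretreatment under LPS and 3 for the interaction, with 42 sites after 1 hr IL-4. With a mean trend of the prior they were 5 after 1 hr IL-4, 4 after 24 hr IL-4 and 7 under LPS, with 22 sites after 1 hr IL-4. With the highest peak of a gene they were 0 after 24 hr IL-4 and 1 after LPS.

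Where a peak in every list was required, 7 gene changes were called after LPS, 4 after LPS in pretreated cells, 1 under LPS and 0 for the interaction, and the site counts were 1, 6, 6, 2 and 0 from 24 hr IL-4 on. With intergenic peaks left out, LPS in pretreated cells gave 4 genes. A floor 4 times as high gave 7 genes under LPS, 2 for the interaction and 4 sites after 24 hr IL-4. The upper 50% of peaks gave 7 genes under LPS, 0 for the interaction, and 4, 14 and 31 sites after 24 hr IL-4, LPS and LPS in pretreated cells. Quantile normalization gave 1 gene under LPS. A floor set after centring, added after seeing the data, gave 14 sites after 1 hr IL-4. In each of these the cause was not tested.

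Leaving out 1 library gave 1 to 2, 0 to 3, 1 to 3, 1 to 7, 0 to 3 and 0 to 1 gene changes in the order above, and 6 to 11, 8 to 14, 19 to 28, 17 to 50, 9 to 33 and 6 to 23 site changes.

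With at least 1 of the values called, directions turned for Edn1 RNAPII-pS2 with LPS (-0.10 with the highest peak, from 0.86), Edn1 RNAPII-pS5 after 24 hr IL-4 (2.03 with intergenic peaks left out, from -0.12), Edn1 p65 with LPS (-0.60 with intergenic peaks left out, from 1.18), Vegfa p65 without centring (0.76 with LPS and 1.98 in pretreated cells, from -0.88 and -0.31) and Ereg p65 in pretreated cells (-0.60 with the higher floor and -0.65 with the upper 50% of peaks, from a fitted 1.40 that itself rests on the floor). Uncalled signs that turned without centring include p300 Ereg (-0.64 to 0.21) and Vegfa (-0.33 to 0.53), HDAC3 Hbegf (-0.11 to 0.31) and Vegfa (-0.32 to 0.097) and PU.1 Hbegf (-0.16 to 0.13).

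Replicate numbers did not pair the samples (correlations of deviations -0.048 to 0.066). With the replicate number as a block, 1 gene change was called after 24 hr IL-4, 2 after LPS and 1 under LPS, and the other counts of genes and sites stayed within 1.5 times the main ones.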
